A study of Homo sapiens with 6 samples.

Results

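This report covers 45 genes of the p53 response and the apoptosis machinery in MDA-MB-468, a breast cancer cell line that lacks hormone receptors and HER2 amplification. The genes were listed by name and found by name in the deposited tables, where all 45 of them were among 45019 gene rows. Of these, 41 passed the filter on low values and 4 were listed at 0 in every library. Total RNA was sequenced from cells left untreated and from cells given 100 µM DETA/NO, a slow donor of nitric oxide, for 10 days. Cells of both groups were of the same line, with no added transgene or deletion named in the labels. For the treatment, cells adhered for 4 h, received the compound, and were pooled within a replicate and replated every 48 h. Untreated cells were likewise of day 10, with replating every 48 h. The labels call nitric oxide an inhibitor of FTO, an RNA demethylase, and the comparison asks which transcripts differ after long exposure.

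There were 3 samples per group by label. DETA/NO replicates 1 and 2 hold the same values throughout and therefore count as 1 library, called DETA/NO library 1/2 here. The comparison therefore set 3 untreated libraries against 2 DETA/NO libraries. Whether samples of a group were separate cultures is not stated, so the p-values cover just the variation among these libraries, which may be technical. Values are normalized reads, which are read counts that the authors divided by 1 factor per library. After a level or a ratio, ± gives the SD over the libraries of a group (3 untreated, 2 DETA/NO). After a log2 fold change it gives the SE from limma. Recovered totals were 28897422 to 34637343 reads per library. The line's markers were present, with EGFR at 217563 to 247990 and EPCAM at 12806 to 13708 normalized reads. Summed markers of other cell types were 592 to 642 in untreated and 845 to 851 in DETA/NO libraries for 7 fibroblast genes, and 955 to 1032 against 463 to 532 for 7 immune genes. They were 333 to 368 against 523 to 577 for 6 endothelial genes and 52.6 to 84.4 against 46.5 to 48.4 for 5 adipocyte genes. COL1A1 carried most of the fibroblast sum and CD14 most of the immune sum, while 4 of 7, 3 of 7, 1 of 6 and 2 of 5 markers of these lists had at most 3 reads in every library. CD68 and FABP4 were among those at 0 throughout, both wholly overlapped by other gene records. The part of other cells in the results was not tested. In bulk RNA, fewer cells with a transcript and less transcript per cell cannot be told apart.

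The transcription factor p53 is stabilized by stress and switches on genes that halt division, repair damage or start cell death, among them MDM2, whose product marks p53 for degradation. Mitochondrial apoptosis is decided within the BCL2 family: BH3-only proteins bind and block survival members such as MCL1, which frees BAX and BAK1 to open the outer membrane and lets APAF1 activate CASP9. Death receptors at the cell surface, bound by ligands such as TRAIL, reach the same end through FADD and CASP8.

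With limma and a Benjamini-Hochberg adjusted p under 0.05 over all 16409 tested genes, 9 members rose and 14 fell, which is 56.1% of the 41 tested members. Over all tested genes 43.4% were called, 21.7% higher and 21.7% lower. The counts by role given below rest on few genes each and are to be read beside these shares. The median log2 fold change was -0.03 over the tested members and -0.00016 over all tested genes, and the median size was 0.17 and 0.18. The members thus moved both ways and by sizes close to those of genes at large. The 2 DETA/NO libraries lay outside the untreated range in 27 of the 41 members (65.9%), against 61.2% of all tested genes. They lay above it in 10 members and below it in 17, against 30.4% and 30.8% of all tested genes. Without the trend and robust options of limma 9 members fell, and 2497 of all tested genes fell (15.2%).

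The genes that rose were GADD45A, AEN, the TRAIL receptors TNFRSF10A and TNFRSF10B, the pore formers BAX and BAK1, the BH3-only genes BBC3 and PMAIP1, and the survival gene BCL2L1. Those that fell were MDM4, BTG2, CCNG1, SESN1, ZMAT3, RRM2B, the TRAIL gene TNFSF10, CFLAR, BCL2, MCL1, APAF1, CASP2, CASP10 and BIRC2. GADD45A had the largest rise and TNFSF10 the largest fall among the tested members.

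**Figure D1:**
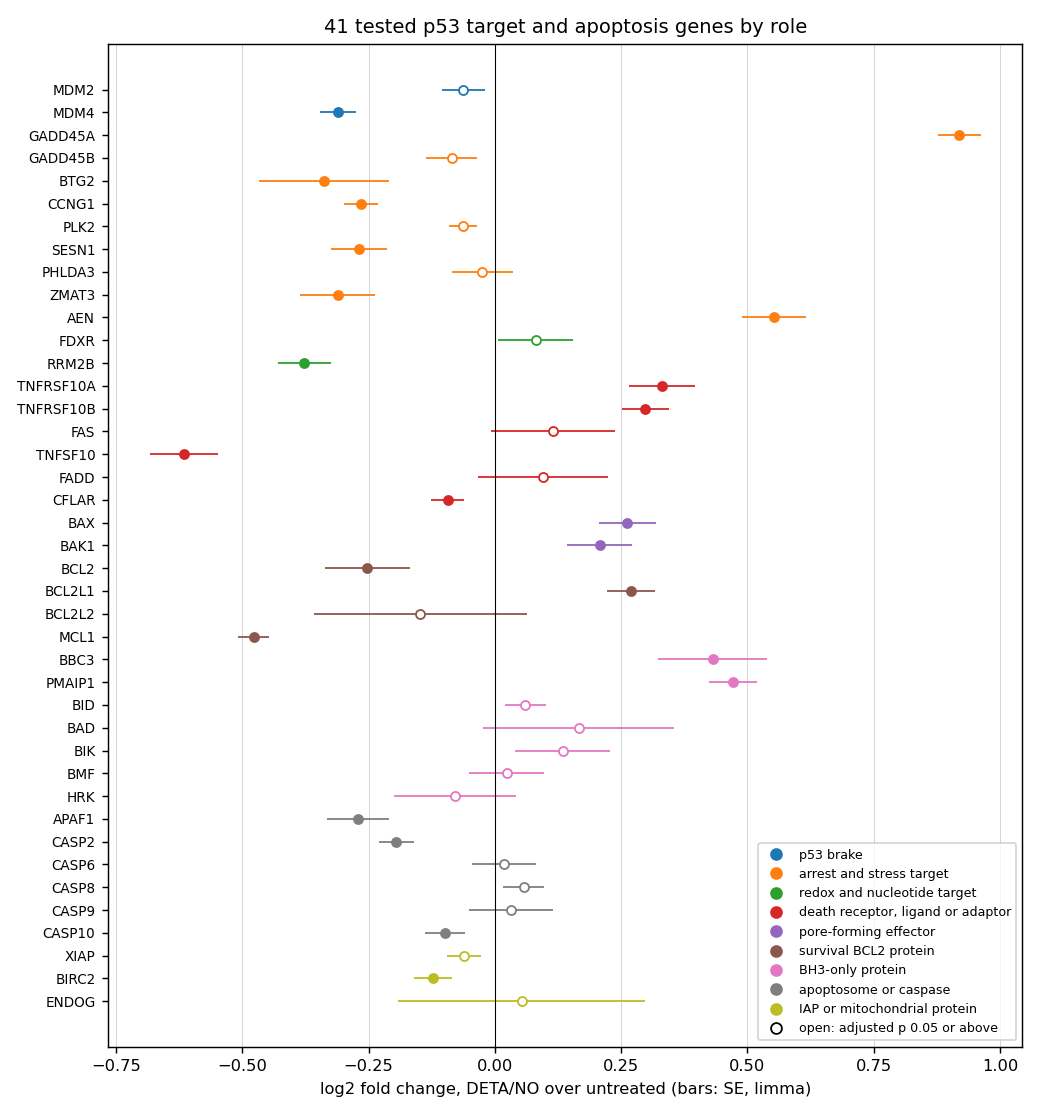
Log2 fold change of DETA/NO over untreated for the 41 tested members, coloured by role; bars are the standard error from limma and open points did not pass an adjusted p of 0.05. GADD45A stands at 0.92 and TNFSF10 at -0.62, and most other members lie within 0.5 of 0.

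Of the brakes on p53, MDM4 fell and MDM2 was not called. MDM4, which binds p53 and blocks its activity, stood at 3621, 3584 and 3531 normalized reads without treatment and at 2863 and 2906 with DETA/NO. Both DETA/NO libraries lay well below all untreated libraries, a log2 fold change of -0.31 ± 0.036 (SE; limma adjusted p = 1.58e-08). MDM4 lies on chromosome 1 at 204516379 to 204558120 (GRCh38, as all positions here). MDM2, the ubiquitin ligase and best known p53 target, had 2354, 2380 and 2441 in untreated and 2192 and 2392 in DETA/NO libraries. Its groups overlapped (log2 fold change -0.06 ± 0.042, limma adjusted p = 0.242), and without DETA/NO library 3 it had -0.13 with a limma adjusted p of 0.0496, so that both brakes fell.

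Among 9 tested targets that act in arrest and stress, 2 rose and 4 fell, where 21.7% of all tested genes rose and 21.7% fell. GADD45A, a stress sensor that binds the replication clamp and stress kinases, had 2418, 2392 and 2363 normalized reads in untreated libraries. It had 4816 and 4250 in the DETA/NO libraries, nearly double, with no overlap and a gap far wider than the spread within either group. The log2 fold change was 0.92 ± 0.042 (limma adjusted p = 2.85e-16). GADD45A lies on chromosome 1 at 67685061 to 67688338. Its relative GADD45B, at a like level per length (1118 ± 89.9 normalized reads per kb of exon in untreated libraries, against 1156 ± 13.3 for GADD45A), had a log2 fold change of -0.09 ± 0.050 and overlapping groups (limma adjusted p = 0.184; 0.0454 without untreated library 1).

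AEN, a nuclease that digests nucleic acids in dying cells, had 624, 617 and 689 in untreated and 951 and 935 in DETA/NO libraries. The DETA/NO values lay close together and above every untreated value (log2 fold change 0.55 ± 0.063, limma adjusted p = 1.24e-08). AEN lies on chromosome 15 at 88621296 to 88632282.

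The falling targets of this role moved less. CCNG1, cyclin G1, which tunes p53 through MDM2, fell from 6695 ± 225 to 5569 ± 141 (log2 fold change -0.27 ± 0.034, limma adjusted p = 1.1e-07). SESN1, a sestrin that restrains growth signalling under stress, had a log2 fold change of -0.27 ± 0.055, from 1016 ± 29.5 to 842.6 ± 16.6. Both genes had non-overlapping groups and kept the call in every alternative. ZMAT3, an RNA-binding protein, had 671, 615 and 587 in untreated and 466 and 540 in DETA/NO libraries (log2 fold change -0.31 ± 0.075, limma adjusted p = 0.00106). Its call rested on DETA/NO library 1/2: without it ZMAT3 had -0.21 (adjusted p = 0.0634), and it had 0.0728 without the trend and robust options. BTG2, an antiproliferative factor that also acts in mRNA decay, had 176, 202 and 256 in untreated and 157 and 173 in DETA/NO libraries, so that the groups nearly touched. Its log2 fold change was -0.34 ± 0.128 (limma adjusted p = 0.0341), and the adjusted p was 0.0649 and 0.233 without untreated libraries 2 and 3, 0.197 without DETA/NO library 1/2, 0.0524 under quantile normalization, 0.213 without the trend and robust options and 0.130 in DESeq2. Without untreated library 3 its log2 fold change was -0.19. Of this role 2 genes, CCNG1 and SESN1, fell without DETA/NO library 1/2 or without the trend and robust options.

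PLK2, a kinase of centriole duplication, and PHLDA3, a brake on AKT signalling, were not called. PLK2 was among the most abundant members, with 25109 ± 528 and 24024 ± 162 normalized reads (log2 fold change -0.06 ± 0.028, limma adjusted p = 0.0637). It passed without a filter (adjusted p = 0.0332), under quantile normalization (0.0108) and without untreated library 3 (0.0485). PHLDA3 had a log2 fold change of -0.03 ± 0.060.

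Of the targets in redox and nucleotide metabolism, RRM2B fell. RRM2B, the p53-inducible small subunit of ribonucleotide reductase that supplies nucleotides for DNA repair, had 1206, 1180 and 1171 in untreated and 896 and 929 in DETA/NO libraries. Both DETA/NO libraries lay below all untreated ones (log2 fold change -0.38 ± 0.052, limma adjusted p = 4.8e-07). FDXR, the ferredoxin reductase of mitochondrial electron transfer, overlapped between groups at 519 ± 35.2 and 548.6 ± 29.9 (limma adjusted p = 0.405).

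**Figure D2:**
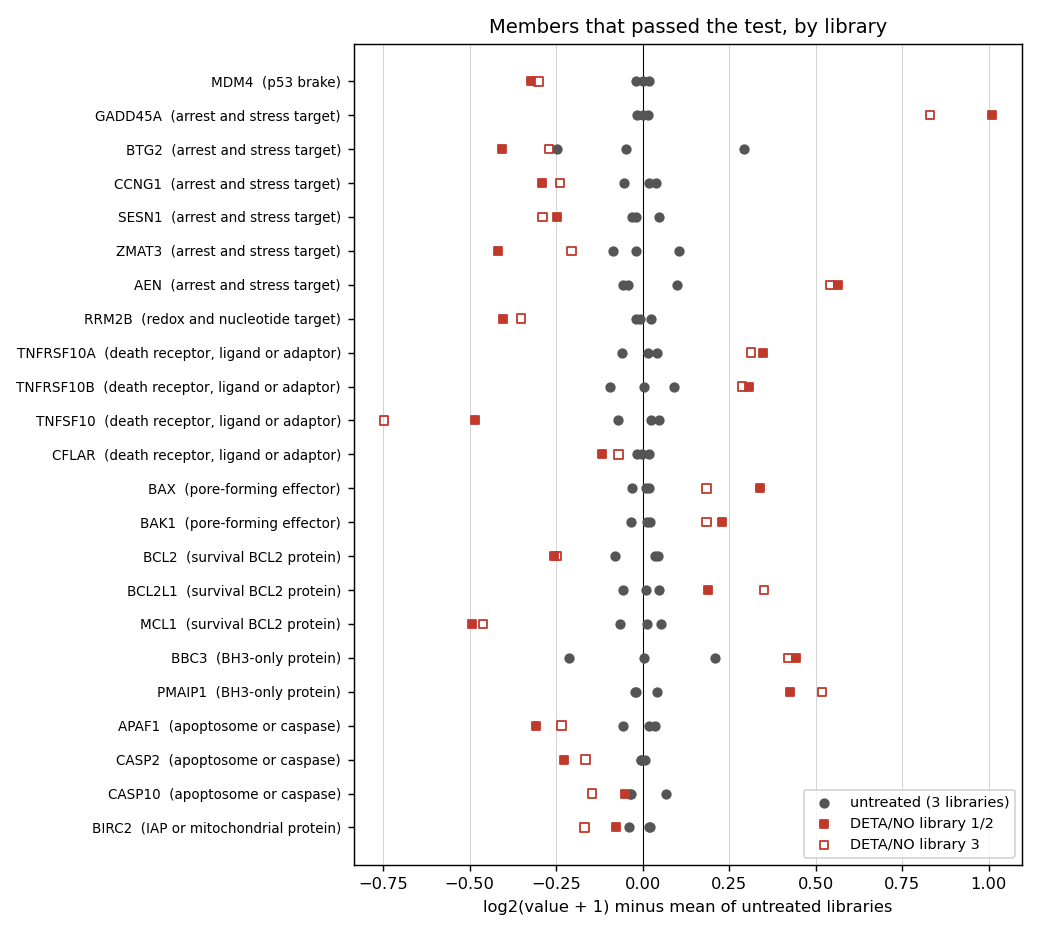
Each of the 23 called members in every library, as log2(value + 1) minus the mean of the untreated libraries; circles are untreated libraries, the filled square is DETA/NO library 1/2 and the open square DETA/NO library 3. The squares lie on 1 side of the circles in all 23, with GADD45A and TNFSF10 farthest out and BTG2 and CASP10 nearly touching. These members were picked by the test on the same libraries, and the groups did not overlap in 61.2% of all tested genes.

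The promoter windows of the members were read from the RefSeq promoter set at hand (GRCh38.p14), which held 35 of the 45. It had no window for GADD45A, MCL1, TNFRSF10A, TNFRSF10B, RRM2B, CASP10, PHLDA3, BIK, BCL2L2 and TP53INP1. Each window ran from 250 bases before to 50 bases after 1 transcript start per gene. For some genes, such as CFLAR and CASP9, that start lay inside the gene's span. Windows are shown for the 4 members whose window held the decamer that, in a pair, makes up a p53 response element. That decamer stands in capitals, written 5′ to 3′ on the gene's strand.
AEN (chr15:88621090-88621389, + strand): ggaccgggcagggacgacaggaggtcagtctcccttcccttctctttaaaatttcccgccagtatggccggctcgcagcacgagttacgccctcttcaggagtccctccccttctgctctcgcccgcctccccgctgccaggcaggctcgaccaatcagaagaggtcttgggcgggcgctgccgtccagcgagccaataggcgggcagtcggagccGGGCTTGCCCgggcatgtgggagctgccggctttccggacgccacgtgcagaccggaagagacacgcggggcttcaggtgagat
BAK1 (chr6:33580227-33580526, - strand): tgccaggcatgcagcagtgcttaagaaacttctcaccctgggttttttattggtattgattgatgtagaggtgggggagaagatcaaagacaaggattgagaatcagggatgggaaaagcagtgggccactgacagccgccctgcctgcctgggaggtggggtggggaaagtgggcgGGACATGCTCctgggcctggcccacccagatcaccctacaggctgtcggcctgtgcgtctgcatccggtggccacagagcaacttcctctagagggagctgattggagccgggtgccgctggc
PLK2 (chr5:58460037-58460336, - strand): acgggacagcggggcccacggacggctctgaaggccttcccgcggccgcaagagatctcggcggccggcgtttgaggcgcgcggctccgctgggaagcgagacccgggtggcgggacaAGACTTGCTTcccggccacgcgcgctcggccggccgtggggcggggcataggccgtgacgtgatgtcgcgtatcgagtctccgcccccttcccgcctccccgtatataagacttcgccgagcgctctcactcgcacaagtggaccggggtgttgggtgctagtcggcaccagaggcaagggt
FDXR (chr17:74872945-74873244, - strand): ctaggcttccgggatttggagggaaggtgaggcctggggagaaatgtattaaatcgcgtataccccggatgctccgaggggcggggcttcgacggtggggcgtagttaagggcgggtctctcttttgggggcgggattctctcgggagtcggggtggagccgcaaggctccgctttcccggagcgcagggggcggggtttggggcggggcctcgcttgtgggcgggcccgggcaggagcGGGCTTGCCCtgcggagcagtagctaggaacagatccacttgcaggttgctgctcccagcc
The windows of AEN and FDXR hold the same letters, GGGCTTGCCC, while AEN rose and FDXR was not called. BAK1 rose and PLK2 was not called. The decamer was found in 4 of 35 member windows (11.4%) and in 6.64% of the 34941 windows of the whole RefSeq set used, on either strand. It was in 2 of the 6 rising members with a window and in 0 of the 11 falling ones. A pair of such decamers at most 13 bases apart was in 0 member windows and in 0.0286% of all windows. Each decamer had to match RRRCWWGYYY without a mismatch (R is A or G, W is A or T, Y is C or T). Pairs with mismatches were not counted, so the count does not show that a window lacks a p53 response element. The cyclic AMP response element TGACGTCA was in 1 member window, that of BIRC2, and in 1.84% of all windows. The composite element TGATGNAA, read by ATF factors, was in 1, that of HRK, and in 3.62% of all. No member window held more than 1 of these motifs. A match is a run of letters and not a measured site. Elements farther from the start used, or at other starts of a gene, were not searched.

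In the death receptor pathway the death receptors for TRAIL among the members rose while TRAIL itself fell. TNFSF10, the gene of TRAIL, had 2006, 2176 and 2140 normalized reads in untreated libraries and 1505 and 1254 in DETA/NO libraries. Both DETA/NO libraries lay far below the untreated range and differed from each other more than the untreated ones did (log2 fold change -0.62 ± 0.068, limma adjusted p = 1.34e-05). TNFSF10 lies on chromosome 3 at 172505508 to 172523507. TNFRSF10A, encoding the first TRAIL death receptor, had 555, 595 and 585 against 736 and 719 (log2 fold change 0.33 ± 0.065, limma adjusted p = 0.000109). TNFRSF10B, the second, rose from 1832 ± 116 to 2250 ± 23.0 (log2 fold change 0.30 ± 0.046, limma adjusted p = 4.37e-06). In both receptors every DETA/NO value lay above every untreated value.

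The other members of that pathway changed little. FAS, the Fas receptor, had a low level of 140 ± 7.17 and 152 ± 3.00 and was not called (limma adjusted p = 0.481). FADD, the adaptor between receptor and caspase, was at 162 ± 25.2 and 173 ± 20.3 with overlapping groups, and exons of other genes covered 54.9% of its exons. CFLAR, a caspase-like inhibitor that blocks CASP8 at the receptor, fell slightly from 5589 ± 68.2 to 5238 ± 124 (log2 fold change -0.09 ± 0.033, limma adjusted p = 0.0207). Its adjusted p was 0.0941 without untreated library 1, 0.215 without DETA/NO library 1/2, 0.0615 in DESeq2 and 0.143 without the trend and robust options, so that TNFSF10 alone of this role fell in those 4 settings.

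Both pore formers rose. BAX had 917, 886 and 910 normalized reads in untreated and 1145 and 1027 in DETA/NO libraries, without overlap (log2 fold change 0.26 ± 0.057, limma adjusted p = 0.000337). BAK1 had 601, 582 and 604 against 699 and 677 (log2 fold change 0.21 ± 0.065, limma adjusted p = 0.00957). The BAK1 adjusted p was 0.0854 when DETA/NO library 1/2 was left out and 0.0666 in DESeq2, so that 1 of the pair rose. Its span lies wholly within GGNBP1 on the opposite strand. BAX and BAK1 held 349.5 ± 6.27 and 269 ± 5.54 normalized reads per kb of exon in untreated libraries.

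The survival genes went different ways. MCL1, a short-lived protein that holds BAK1 and is neutralized by the PMAIP1 product NOXA, had 22739, 24023 and 24667 normalized reads in untreated libraries. It had 16890 and 17281 in DETA/NO libraries, far below every untreated value (log2 fold change -0.48 ± 0.031, limma adjusted p = 8.35e-14). MCL1 lies on chromosome 1 at 150574551 to 150579738. BCL2, the founding member of the family, fell from 379 ± 18.0 to 318 ± 1.52 (log2 fold change -0.25 ± 0.084, limma adjusted p = 0.0147). Its log2 fold change was between -0.29 and -0.23 when each library was left out in turn, but its adjusted p was 0.0580 and 0.0552 without untreated libraries 1 and 2, 0.0646 and 0.0517 without DETA/NO library 1/2 and library 3, and 0.0983 in DESeq2. MCL1 alone of this role fell in those 5 settings. BCL2L1, the gene of BCL-XL, rose: it had 1615, 1689 and 1735 against 1914 and 2140 (log2 fold change 0.27 ± 0.048, limma adjusted p = 3.12e-05). Other genes overlapped 54.6% of the BCL2L1 span. BCL2L2, the gene of BCL-W, had only 44.4 ± 3.29 and 40.0 ± 1.46 and was not called.

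Per length, MCL1 dominated the survival genes in every library. It held 5447 ± 224 normalized reads per kb of exon in untreated and 3909 ± 63.1 in DETA/NO libraries, against 507 ± 18.2 and 612 ± 48.4 for BCL2L1 and 32.2 ± 1.53 and 27.0 ± 0.129 for BCL2. MCL1 made up 90.7%, 90.9% and 90.9% of the per-length total of the 4 survival genes in untreated libraries and 86.3% and 85.3% in DETA/NO libraries. BCL2L1 made up 8.50%, 8.43% and 8.43%, then 12.9% and 13.9%. These are shares of levels scaled by exon length, and the counting regions are not given in the sources used here. If reads over introns were counted, a level per kb of exon is too high for genes with long introns such as BCL2, and the overlap of BCL2L1 could lower its level.

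**Figure D3:**
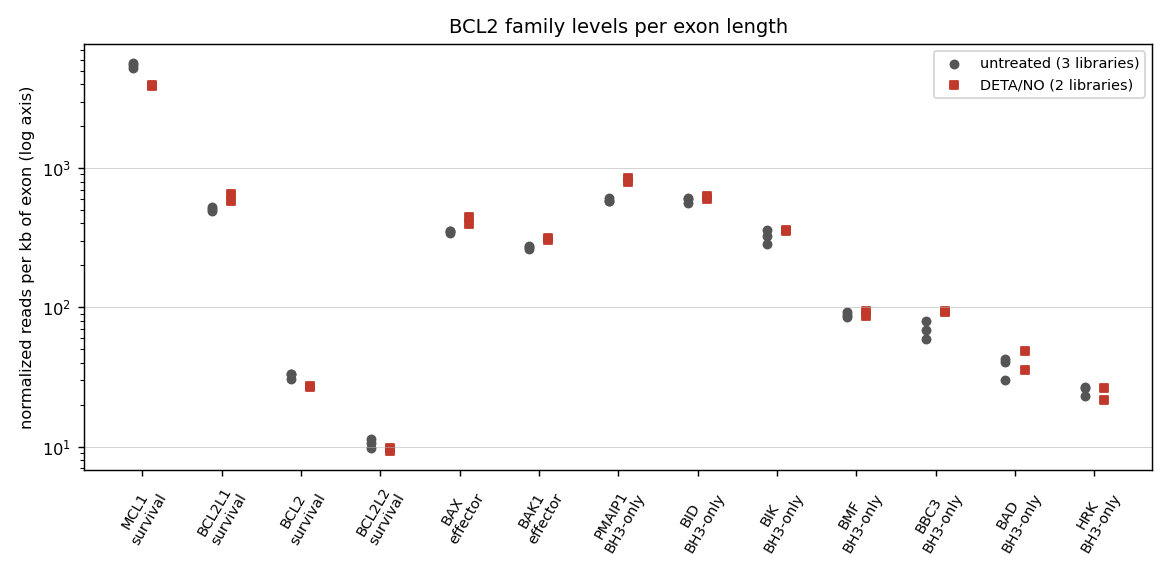
Level of each tested BCL2 family gene per kb of exon (log axis), circles for untreated and squares for DETA/NO libraries, grouped as survival, pore-forming and BH3-only genes. MCL1 stands about an order above BCL2L1 and falls, PMAIP1 and BBC3 rise, and the other BH3-only genes overlap between groups.

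Of 7 tested BH3-only genes, 2 rose, 0 fell and 5 were not called, where 43.4% of all tested genes were called. PMAIP1, the gene of NOXA, which binds MCL1, had 1358, 1299 and 1303 normalized reads in untreated and 1772 and 1892 in DETA/NO libraries. The groups were far apart relative to their spread (log2 fold change 0.47 ± 0.047, limma adjusted p = 8.85e-10). PMAIP1 lies on chromosome 18 at 59899948 to 59904306. BBC3, the gene of PUMA, which binds all survival members, had 188, 219 and 252 against 297 and 292. Its untreated values were widely spread and all lay below the DETA/NO values (log2 fold change 0.43 ± 0.108, limma adjusted p = 0.00157, and 0.0755 without the trend and robust options, where PMAIP1 alone of this role rose). BBC3 lies on chromosome 19 at 47220822 to 47232766.

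The BH3-only genes that were not called were BID, which links death receptors to mitochondria, BIK, BMF, HRK and BAD. Their log2 fold changes ran from -0.08 for HRK to 0.17 for BAD, and their groups overlapped. BID, at 589 ± 24.4 and 614 ± 18.8 normalized reads per kb of exon, and BIK, at 324 ± 37.9 and 354 ± 3.69, were the more abundant of these. BAD had 64.0 ± 11.3 and 71.9 ± 15.8, with 98.4% of its span overlapped by other genes.

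Ratios of members within a library do not depend on the library's scaling factor. They were chosen after the values were seen and are given with no test. PMAIP1 over MCL1 was 0.0597, 0.0541 and 0.0528 in untreated and 0.105 and 0.109 in DETA/NO libraries, 1.93 times as high on average. BCL2L1 over MCL1 went from 0.0706 ± 0.000408 to 0.119 ± 0.00747, and BAX over BCL2 from 2.39 ± 0.134 to 3.42 ± 0.277. TNFRSF10B over TNFSF10 was 0.855, 0.843 and 0.910 against 1.51 and 1.78. BAX over BCL2L1, both rising genes, was 0.567, 0.524 and 0.525 against 0.598 and 0.480, and overlapped between groups. The other pairs set a rising gene over a falling gene, neither with overlapping groups. Their ratios therefore had to separate, which adds no support beyond the genes' own values.

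**Figure D4:**
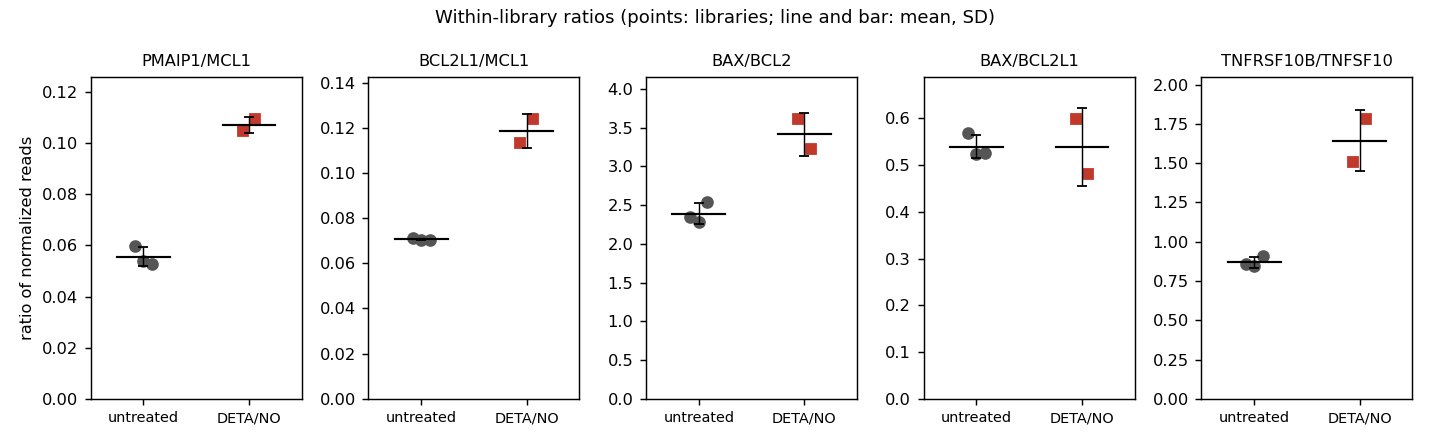
Ratios of normalized reads within each library for 5 pairs of members, on axes that start at 0; points are libraries, the horizontal line is the mean and the bar the SD (n = 3 untreated, n = 2 DETA/NO). PMAIP1/MCL1, a rising gene over a falling gene, is 1.93 times as high in DETA/NO libraries. BAX/BCL2L1, with both genes rising, overlaps.

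Downstream of the mitochondria, 3 of 6 genes of the apoptosome and caspases fell and 0 rose, where 21.7% of all tested genes fell and 21.7% rose. APAF1, the scaffold of the apoptosome, had 810, 800.5 and 760 in untreated and 638 and 671 in DETA/NO libraries (log2 fold change -0.27 ± 0.062, limma adjusted p = 0.000598). CASP2, a caspase activated on the p53-induced scaffold PIDD1, fell from 4290 ± 21.5 to 3747 ± 113 (log2 fold change -0.20 ± 0.035, limma adjusted p = 2.43e-05). Neither gene's groups overlapped, and both kept the call in every alternative. CASP10, a receptor-bound relative of CASP8, was near the threshold, with 3049, 3042 and 3271 against 3008 and 2819 (log2 fold change -0.10 ± 0.040, limma adjusted p = 0.0473). It lost the call in 9 of 16 alternatives. Among them its adjusted p was 0.0591 and 0.177 without untreated libraries 1 and 3, 0.446 without DETA/NO library 3, where the log2 fold change was -0.05, and 0.0555 in edgeR; APAF1 and CASP2 alone fell there. CFLAR, CASP10 and CASP8 lie in a row on chromosome 2, from 201116104 to 201287711.

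CASP8, the initiator at death receptors, CASP9, the initiator at the apoptosome, and CASP6, an executioner, were not called. Their log2 fold changes were 0.06 ± 0.041, 0.03 ± 0.083 and 0.02 ± 0.063, with overlapping groups and limma adjusted p of 0.284, 0.793 and 0.851.

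Among inhibitors of apoptosis, BIRC2, the ubiquitin ligase cIAP1, fell slightly from 3917 ± 92.5 to 3599 ± 162 (log2 fold change -0.12 ± 0.037, limma adjusted p = 0.00722). Without DETA/NO library 3 it had -0.08 (adjusted p = 0.194), and without the trend and robust options the adjusted p was 0.133; in both settings 0 of this role fell. XIAP, which blocks caspases directly, had 5663 ± 133 and 5426 ± 67.1 (log2 fold change -0.06 ± 0.033, limma adjusted p = 0.136, and 0.0296 under quantile normalization, where 2 of this role fell). ENDOG, a mitochondrial nuclease, had 37.9 ± 10.5 and 38.5 ± 5.93 with 72.0% of its span overlapped.

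TP53INP1, TP53I3, BCL2L11 (the gene of BIM) and DIABLO (the gene of SMAC) were listed at 0 in all 5 libraries. In GENCODE release 29 the span of each is covered in full by other gene records. Of 1792 protein-coding genes in that position 96.9% were at 0 in every library, against 8.92% of the 17946 others, so that these zeros give no level for the 4 genes. BAK1 was an exception, wholly overlapped and measured.

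Other genes of the same pathways, from lists written for this comparison with none of the members in them, moved both ways as well. Of 72 tested genes 23 rose and 17 fell (55.6%, against 43.4% of all tested genes), with a median log2 fold change of 0.03. Without the trend and robust options 8 fell, and 15.2% of all tested genes fell. By list, 64% of the other p53 targets, 54.5% of the other apoptosis machinery and 42.9% of the p53 family and regulators were called. Of 25 other p53 targets 7 rose and 9 fell (6 without DETA/NO library 1/2 or in DESeq2, 4 without the trend and robust options). BTG1, a relative of BTG2 with 52.7% of its span overlapped, rose by 0.55 on the log2 scale, TGFA by 0.39, SESN2 by 0.84 and the stress cytokine GDF15 by 1.17. The level of GDF15 was low, at 46.1 ± 3.77 in untreated and 106 ± 13.7 in DETA/NO libraries. DRAM1, a lysosomal protein, had -0.67, TSKU -0.30, FUCA1 -0.29 and PERP -0.13. PERP had -0.07 (adjusted p = 0.143) when DETA/NO library 1/2 was left out, and 0.139 without the trend and robust options. Some relatives differed in direction: SESN2 rose and SESN1 fell, and BTG1 rose and BTG2 fell, though BTG2 lost its call in 6 of 16 alternatives. Other relatives moved together: TNFRSF10A and TNFRSF10B rose, as did BAX and BAK1. CDKN1A, the p21 cell cycle inhibitor, is named after its values were seen: it had 1159, 1132 and 1471 against 1887 and 2108, a log2 fold change of 0.68 ± 0.156 (limma adjusted p = 0.0402). Its adjusted p was 0.0854 and 0.0634 without untreated libraries 1 and 2 and 0.126 and 0.168 without DETA/NO library 1/2 and library 3.

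Of 33 other genes of the apoptosis machinery 12 rose and 6 fell (3 without DETA/NO library 3, 4 without library 1/2, and 2 without the trend and robust options). The death receptor TNFRSF21 rose by 0.73 on the log2 scale, DFFA, the inhibitor of the caspase-activated nuclease, by 0.30, PEA15, which binds FADD, by 0.25 and the mitochondrial channel VDAC2 by 0.22. BCL2L14, overlapped by other genes over 59.2% of its span, had -0.39 on that scale, PARP1 -0.16, BIRC3 -0.16 and BAG1 -0.14. BIRC3 had -0.11 (adjusted p = 0.126) when DETA/NO library 3 was left out, and BAG1 -0.07 and 0.212 without library 1/2; without the trend and robust options they had 0.153 and 0.141. Of 14 members and regulators of the p53 family 4 rose and 2 fell. TP63 rose by 0.91 from a low level of 64.7 ± 6.76, TP53BP2 by 0.19, USP7 by 0.14 and USP10 by 0.13, the last 3 with adjusted p of 0.0608, 0.0990 and 0.0808 without the trend and robust options, where 1 rose. TRIM24, a ligase of p53, had -0.39 and HIPK2, a p53 kinase, -0.41. In this list 4 fell without untreated library 1 and 3 without untreated library 3.

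**Figure D5:**
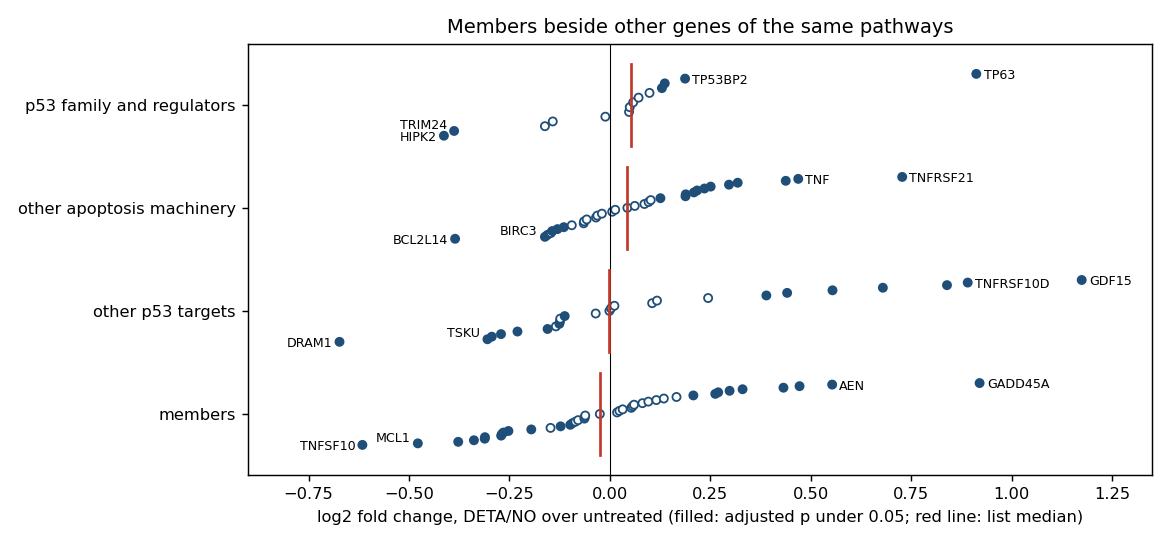
Log2 fold changes of the members and of the 3 lists of other pathway genes; filled points passed an adjusted p of 0.05 and the red line is each list's median. All 4 groups straddle 0, with GADD45A, GDF15, TNFRSF21 and TP63 at the high ends.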

How the data were processed

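The deposited files give 1 normalized count per gene (a signal made by the authors by dividing reads by 1 factor per library). Every value above 0 was a whole multiple of 1 step (tolerance 0.01; 100% of values), so whole reads were recovered. Per the submitters' processing notes, the tools included TopHat2 2.1.1, Bowtie2 2.5.0.0, featureCounts 2.0.3 and DESeq2 1.38.3, with GRCh38; for the annotation, strand and counting mode, nothing was given in the sources. In each file 27 row names had become dates (0.246% of reads); they stayed in the fit and are not named. Groups came from sample titles.

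The test was limma 3.58.1 (R 4.3.3) on log2(value + 1), with its trend and robust options, over the 16409 genes averaging at least 10, with Benjamini-Hochberg adjustment over all of them. Fold changes on this scale understate changes of low genes. Alternatives were edgeR 4.0.16 and DESeq2 1.42.0 on recovered reads, leave-one-library-out fits, a replicate block, and other pseudocounts, filters and scalings; counts by role under these were chosen after seeing the data. Simulated data with known changes were used to check the scripts. The members, lists, motifs and ratios were chosen with earlier results of these data known. Every member is named; called members with an absolute log2 fold change of at least 0.3 get each library's value, as do some others, and up to 4 rising and 4 falling genes of each further list, those with the smallest adjusted p, are named; another gene the rule names is not reported here. Lengths and overlaps are from GENCODE release 29 and promoters from RefSeq.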

Additional observations from a re-analysis of the deposited data

How the results depend on the processing

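Of the 23 called members, 15 kept the call and direction in all 16 alternatives and 8 lost it in at least 1, each in the same direction. When each library was left out in turn, 8 to 9 members rose and 10 to 13 fell, 21 to 26 other pathway genes rose and 12 to 16 fell, and 2776 to 3573 of all tested genes rose and 2803 to 3504 fell. Limma without the trend and robust options gave 9 members lower, 8 other pathway genes lower and 2262 of all genes higher, each more than 1.5 times below the reported count, and 2497 of all genes lower; the cause was not tested. With a replicate block, 9 members rose and 14 fell with the shared library taken as number 1, and 9 and 13 with it as number 2, where an untreated library without a partner carries no weight. CFLAR and CASP10 lost the call with it as number 2 (adjusted p = 0.120 and 0.0533), and GADD45B passed (0.0310). Whether the numbers pair the libraries cannot be settled here. Deviations from the group means correlated by 0.00106 to 0.0301 for same-numbered libraries. With 2 DETA/NO libraries, however, the deviations of 1 mirror those of the other.

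Members that were not called changed sign in some settings, without a call in the turned direction. With each library left out in turn, the log2 fold change ran from -0.13 to 0.00045 for MDM2, -0.057 to 0.028 for PHLDA3, -0.024 to 0.21 for FADD, -0.057 to 0.39 for BAD, -0.030 to 0.077 for BMF and -0.058 to 0.093 for CASP6. It ran from -0.23 to 0.067 for HRK (-0.14 without untreated library 1), -0.065 to 0.13 for CASP9 (0.058 without untreated library 2) and -0.18 to 0.23 for ENDOG. The sign turned when DETA/NO library 1/2 was left out for MDM2, FADD, BAD, BMF and CASP6. Leaving out DETA/NO library 3 turned it for HRK, CASP9, PHLDA3 (0.0014) and ENDOG (-0.10). So did leaving out untreated library 3 for PHLDA3, untreated library 2 for ENDOG and untreated library 1 for BMF (-0.0016). Under the block BMF had -0.0016 with the shared library as number 2 and ENDOG -0.18 with it as number 1. MDM2 passed the threshold without DETA/NO library 3 with its sign kept. Genes under about 100 normalized reads, such as BCL2L2, BAD and ENDOG, had standard errors of 0.19 to 0.24, so that small changes there were not detectable at this depth.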
